A study of Mus musculus with 18 samples.

Results

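Glycolysis, gluconeogenesis and the TCA cycle were followed through 41 genes in the thick ascending limb (TAL) of Henle's loop. The genes were taken by name from a list that covers glucose entry and hexokinase, upper and lower glycolysis, lactate dehydrogenase, the pyruvate dehydrogenase complex, the TCA cycle and the bypass enzymes of gluconeogenesis. They were 41 of the 55291 gene names in the tables. *Aldoa* is listed under 2 identifiers, so that the 41 genes held 42 of 55401 rows, and its second row stayed below 1 CPM in all pools. Of these rows, 38 had enough reads to be tested in each comparison, and *Hk2*, *Eno2*, *Fbp2* and the second *Aldoa* row had not.

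Tubules were dissected by hand from liberase-treated kidneys of adult male mice labelled C57BL/6J, each pool from a single animal, and their poly-A RNA was sequenced. Conditional knock-out (cKO) mice carried floxed *Cldn10* alleles (*Cldn10* fl/fl) and the Ksp-Cre transgene, whose Ksp-cadherin promoter is active along the distal nephron. Their littermates with *Cldn10* fl/fl and no Cre are called WT, so that all mice carried the floxed alleles. The groups were WT CTAL (cortical TAL, 5 pools: replicates 1, 3, 8, 10 and 22), cKO CTAL (5 pools: replicates 2, 4, 7, 9 and 21), WT MTAL (medullary TAL of the inner stripe, 5 pools: replicates 11, 13, 15, 17 and 19) and cKO MTAL (3 pools: replicates 16, 18 and 20). Values of single pools follow below in this order. *Cldn10* itself, a paracellular channel of the tight junction, lay between 653 and 809.9 CPM in WT MTAL and between 151 and 296 CPM in cKO MTAL. In CTAL it lay between 384 and 579 CPM in WT and between 156 and 185 CPM in cKO. The study had retained cKO pools by their lower *Cldn10* level. *Cldn10* reads thus remained in every cKO pool, and counts per gene do not show whether they came from the exons left by the deletion or from undeleted alleles. Total counts ranged from 10824299 to 62339939 per pool.

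Glycolysis splits glucose into pyruvate in the cytosol, and lactate dehydrogenase interconverts pyruvate and lactate. The pyruvate dehydrogenase complex commits pyruvate to the mitochondrial TCA cycle. Gluconeogenesis runs the other way through bypass enzymes and is, in the kidney, a property of the proximal tubule. The TAL spends much ATP on sodium transport and makes most of it by mitochondrial oxidation. The MTAL lies in the outer medulla, where oxygen tension is low.

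Several pools stood apart or went against a label, which touches the results below. The pool code of WT CTAL replicate 1 names it WT, while the rest of its title and its genotype field say *Cldn10* KO. It was used as WT after its pool code. Its *Cldn10* level was 446 CPM, among those of the other WT CTAL pools. The study excluded a cKO CTAL pool for a *Cldn10* level like that of WT CTAL, so this level does not settle the label. *Xist*, the RNA of the inactive X chromosome, was found at 0.467 to 1.58 TPM in 7 pools and at no more than 0.067 TPM in the other 11. The pools with *Xist* were cKO CTAL replicate 2, WT CTAL replicates 3 and 22 and WT MTAL replicates 11, 15, 17 and 19. WT MTAL replicate 13 was then the single WT MTAL pool without *Xist*, and no cKO MTAL pool held it. These 7 pools also held less *Hba-a1* (2.78 to 14.6 TPM, against 25.4 to 73.4 TPM elsewhere). *Xist* and the Y-linked *Ddx3y*, *Kdm5d*, *Eif2s3y* and *Uty* summed to 96.5 to 119 CPM in these 7 pools and to 90.4 to 128 CPM over all pools. Of these 5 sex markers *Xist* alone was called between cKO and WT MTAL. What set the 7 pools apart was not tested. cKO MTAL replicate 18 had the highest sum of 5 tubular injury markers (8129 CPM, against 1030 to 4437 CPM elsewhere), and cKO CTAL replicate 2 had the second (4437 CPM). All cKO pools lay above all WT pools of their segment in this sum (2012 to 8129 against 1030 to 1259 CPM in MTAL, and 1683 to 4437 against 1367 to 1622 CPM in CTAL). Proximal tubule markers summed to 526.5 and 388 CPM in cKO MTAL replicates 18 and 20, and to 91.3 to 169.8 CPM in WT MTAL. The TAL markers *Slc12a1* and *Umod* reached 11424 to 16145 CPM and 23817 to 55295 CPM over all pools. The sum of 7 TAL markers differed between groups. It was 51562 to 62889 CPM in WT MTAL, 67617 to 79944 CPM in cKO MTAL, 84349.5 to 95790 CPM in WT CTAL and 82094 to 98274 CPM in cKO CTAL. *Umod* was among the TAL markers called between the WT segments and between cKO and WT MTAL.

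The enzymes of oxidation and of aerobic glycolysis were abundant, and the gluconeogenic members were low. TPM, which corrects for transcript length, was used to compare genes with each other. Across the 18 pools *Ldhb*, the heart-type lactate dehydrogenase subunit, had the highest mean level of the 41 genes (1885 TPM). It was followed by *Aldoa*, the common aldolase (1366 TPM), *Idh2*, the mitochondrial NADP-dependent isocitrate dehydrogenase (934 TPM), and *Mdh1*, the cytosolic malate dehydrogenase (755 TPM). The ranges of *Idh2* (768 to 1135 TPM) and *Mdh1* (594 to 957 TPM) overlapped, as did those of *Ldhb* (1347 to 2411 TPM) and *Aldoa* (1052 to 1624 TPM). Of the 41 genes, 26 stayed at or above 100 TPM in all pools and 33 at or above 10 TPM. Under 10 TPM in every pool were *Eno2*, *Hk2* and *Fbp2*, the neuronal enolase, the insulin-regulated hexokinase and the muscle fructose-1,6-bisphosphatase. The remaining low genes were *Eno3* (2.43 to 12.7 TPM), the gluconeogenic *Fbp1* (1.996 to 13.3 TPM), *Pck2* (3.68 to 14.6 TPM) and *Pck1* (1.07 to 10.7 TPM), and *Pgam2* (5.94 to 45.6 TPM).

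**Figure D1:**
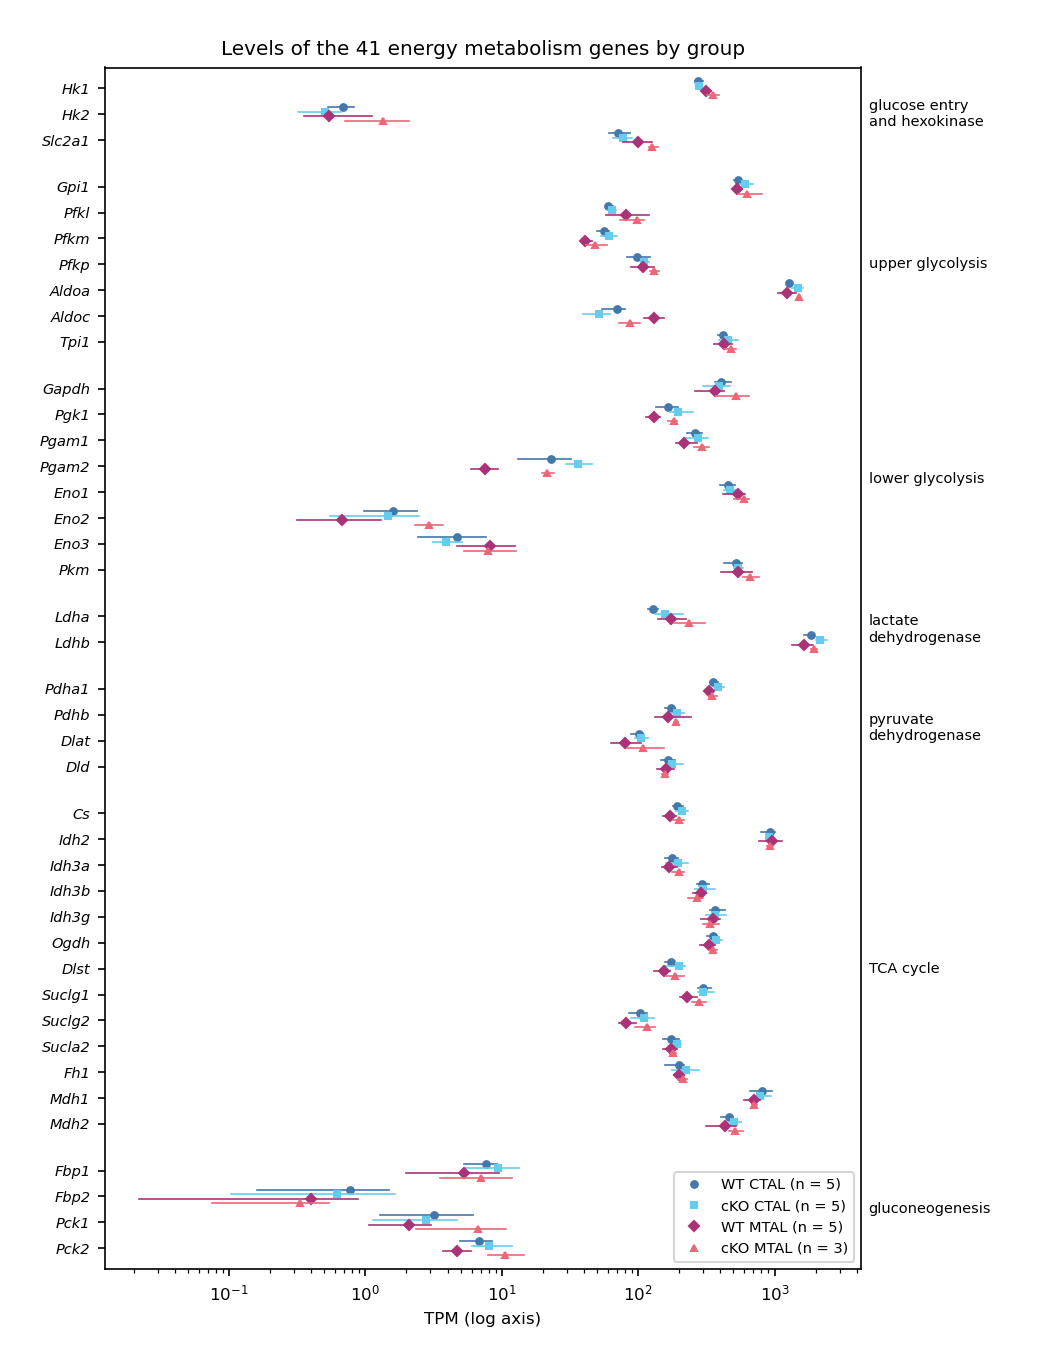
Mean TPM (log axis) of the 41 genes in the 4 groups, ordered by metabolic step. Markers are group means and lines run from the lowest to the highest pool. *Ldhb* and *Aldoa* stand highest, and the 4 gluconeogenic genes peak at 14.6 TPM (*Pck2*).

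Added up by step, the 13 genes of the TCA cycle reached 4253 ± 423 TPM in WT MTAL (SD, n = 5) and 4531 ± 329 TPM in WT CTAL (SD, n = 5). The 7 genes of upper glycolysis reached 2555 ± 251 TPM and 2512 ± 94.4 TPM, and the 8 genes of lower glycolysis 1811 ± 265 TPM and 1835 ± 134 TPM. The 4 gluconeogenic genes together reached 12.4 ± 3.19 TPM in WT MTAL and 18.3 ± 4.38 TPM in WT CTAL. The groups overlapped in each of these sums. The sum of the TCA cycle genes includes the cytosolic *Mdh1* (708 ± 69.8 TPM in WT MTAL) and the NADP-dependent *Idh2* (960 ± 134 TPM in WT MTAL). All 41 genes together held 1.16% of TPM in WT MTAL, 1.20% in WT CTAL, 1.33% in cKO MTAL and 1.30% in cKO CTAL. On the TPM scale the median of all tested genes was itself higher in cKO than in WT, by 0.19 log2 units in MTAL and by 0.13 in CTAL, so that these sums were not read as differences between genotypes.

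Most families were carried by 1 isozyme. *Hk1*, the housekeeping hexokinase, held 99.8% ± 0.113 of the hexokinase TPM in WT MTAL (SD, n = 5) and 99.7% ± 0.0489 in WT CTAL (SD, n = 5). *Eno1*, the ubiquitous enolase, held 98.4% ± 0.567 and 98.6% ± 0.493. *Ldhb* held 90.5% ± 1.61 and 93.5% ± 0.549, and *Aldoa* 90.5% ± 1.12 and 94.8% ± 0.694. Phosphofructokinase was the exception. *Pfkp*, the platelet form, held 47.1% ± 2.82 in WT MTAL and 45.3% ± 4.43 in WT CTAL, and the liver form *Pfkl* and the muscle form *Pfkm* shared the rest. Of the succinyl-CoA ligase beta subunits, the ATP-forming *Sucla2* held 68.2% ± 1.27 and 63.01% ± 1.704, with the GTP-forming *Suclg2* as the remainder. The mitochondrial *Pck2* held 69.5% ± 6.31 and 70.003% ± 9.24 of the phosphoenolpyruvate carboxykinase TPM, at the low levels given above.

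The main isozymes of glycolysis, lactate dehydrogenase and succinyl-CoA ligase varied little between pools, and those of gluconeogenesis are given further below. CPM on TMM-normalized library sizes, which compare pools but not genes, were used from here on. *Hk1* was measured at 760.4, 843, 784, 751 and 907 CPM in WT CTAL, 834, 749, 798, 721 and 765 CPM in cKO CTAL, 881, 933, 944, 1034 and 916 CPM in WT MTAL and 925, 912 and 1036 CPM in cKO MTAL. The cKO MTAL pools lay above all cKO CTAL pools, and in WT only CTAL replicate 22 reached into the MTAL range. *Pfkp* was measured in the same order at 201, 268, 195, 221 and 186 CPM, 256, 235, 242, 205 and 207 CPM, 256, 290.1, 249.9, 233 and 253 CPM and 255, 292 and 291 CPM, and its groups overlapped. *Aldoa* reached 1327, 1503, 1349.5, 1257 and 1483 CPM, 1634, 1286, 1511, 1475 and 1501 CPM, 1405, 1459, 1386, 1195 and 1443 CPM and 1592, 1518 and 1559 CPM. The 3 cKO MTAL pools lay above all WT MTAL pools, and the other groups overlapped.

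*Pgam1*, the common phosphoglycerate mutase, was found at 354, 413, 311, 359.9 and 326 CPM in WT CTAL, 393, 326, 356, 368 and 282 CPM in cKO CTAL, 306, 347, 265, 289 and 329 CPM in WT MTAL and 341, 406 and 352 CPM in cKO MTAL. *Eno1* lay at 699, 861, 651, 728 and 739.6 CPM, 803, 679, 682, 697 and 679 CPM, 957, 930.3, 860.4, 721 and 979.7 CPM and 791, 935 and 910.4 CPM. Both genes overlapped in each of the 4 comparisons. *Ldhb* lay at 1878, 1926, 1639, 1738 and 1739 CPM in WT CTAL, 2018, 1806, 2008, 1990.3 and 1848 CPM in cKO CTAL, 1649, 1749.6, 1497, 1479.8 and 1773 CPM in WT MTAL and 1735, 1769 and 1762 CPM in cKO MTAL. *Sucla2* lay at 217, 223, 176, 222 and 182 CPM, 219, 193, 196, 196 and 188 CPM, 223, 201, 177, 216 and 225 CPM and 184, 179 and 177 CPM. For both, the cKO MTAL pools lay below all cKO CTAL pools, by margins smaller than the spread within cKO CTAL.

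Reads of *Aldoa*, *Eno1*, *Gapdh* and *Pgk1* can be shared with near-identical copies, and how the counting treated them is not given in the sources used here. The *Eno1* copy *Eno1b* was counted at 68.0 to 149 CPM. The counts of *Aldoart1*, *Aldoart2*, *Pgk2* and *Gapdhs* stayed at or below 13.6 CPM.

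The first question was whether fuel genes differ between medullary and cortical TAL. In WT mice 7 of the 38 tested rows passed the test. *Aldoc*, *Slc2a1*, *Ldha* and *Pfkl* were more expressed in MTAL than in CTAL, and *Pgam2*, *Pfkm* and *Suclg2* were less expressed. All 7 but *Suclg2* act in glucose entry, glycolysis or lactate production, and 12 of 13 TCA cycle genes and all 4 genes of the pyruvate dehydrogenase complex did not pass. Over all 11650 genes tested, 2.76% were called higher and 4.1% lower, against 4 and 3 of the 38 rows. The median log2 fold change was -0.04 over the 38 rows and 0.02 over all genes tested. Summed over 5 thin limb markers, WT MTAL held 214 to 320.0 CPM and WT CTAL 114 to 254 CPM, with *Aqp1* and *Cryab* called higher in MTAL. The 5 immune markers summed to 76.9 to 123 CPM in WT MTAL and 135 to 180 CPM in WT CTAL, with *C1qa*, *C1qb* and *Cd74* called lower in MTAL. The tubular injury markers summed to 1030 to 1259 CPM and 1367 to 1622 CPM, with *Spp1* called lower in MTAL. The part of these markers in the results was not tested. In bulk pools, fewer cells of a type and less RNA per cell cannot be told apart.

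*Aldoc*, aldolase C, known as the brain form, lies at chr11:78322968-78327781, plus strand (GRCm38). It was counted at 80.8, 125, 84.7, 108 and 113 CPM in WT CTAL and at 158, 212, 173, 188 and 197 CPM in WT MTAL. Every MTAL pool was above every CTAL pool, with a log2 fold change of 0.86 ± 0.12 (SE), adjusted p = 0.00019. Its share of aldolase TPM was 5.23% ± 0.694 in WT CTAL and 9.53% ± 1.12 in WT MTAL (SD, n = 5 each).

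*Pgam2*, the muscle form of phosphoglycerate mutase (chr11:5801640-5803733, minus strand), moved the other way. Its values were 16.96, 8.37, 20.2, 15.4 and 9.45 CPM in WT CTAL and 4.45, 5.39, 4.73, 5.37 and 3.86 CPM in WT MTAL. The groups did not overlap, although WT CTAL replicates 3 and 22, both with *Xist*, were the lowest of CTAL. The log2 fold change was -1.56 ± 0.25 (SE), adjusted p = 0.00068, and *Pgam2* was the single member past 1 log2 unit (1 of 38, against 2.32% of all genes tested). Of 5 skeletal muscle markers, 4 (*Ckm*, *Myh1*, *Myh4* and *Tnnt3*) stayed under 1 CPM in every pool. The other, *Acta1*, lay between 7.53 and 33.9 CPM.

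*Slc2a1* encodes GLUT1, a basolateral glucose transporter (chr4:119108711-119137983, plus strand). It was counted at 149, 174, 138, 177 and 147 CPM in WT CTAL and at 212, 263, 172, 179 and 257 CPM in WT MTAL. WT MTAL replicates 15 and 17 overlapped with CTAL, and the other 3 pools were higher. The log2 fold change was 0.47 ± 0.12 (SE), adjusted p = 0.027. The gene overlaps *Mir1957a* on its own strand and *Gm12867* and *Gm12868* on the other, and whether the counting used the strand is not stated.

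*Ldha*, the muscle-type lactate dehydrogenase subunit (chr7:46841475-46855627, plus strand), was counted at 121, 141, 124, 138 and 133 CPM in WT CTAL and 190.3, 194, 150.4, 154 and 169 CPM in WT MTAL. The groups did not overlap, and the log2 fold change was 0.38 ± 0.09 (SE), adjusted p = 0.014. *Ldha* made up 6.51% ± 0.549 of lactate dehydrogenase TPM in WT CTAL and 9.54% ± 1.61 in WT MTAL (SD, n = 5 each).

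The 2 smaller phosphofructokinase genes changed in opposite directions. *Pfkl* (chr10:77986947-78010083, minus strand) was counted at 169, 189.7, 166, 188 and 189 CPM in WT CTAL and 229, 240.4, 208, 197 and 269 CPM in WT MTAL, a log2 fold change of 0.34 ± 0.09 (SE), adjusted p = 0.029. *Pfkm* (chr15:98092589-98132451, plus strand) was counted at 143, 119, 129, 129 and 130.5 CPM in WT CTAL and 101, 100.05, 94.3, 99.8 and 102 CPM in WT MTAL, a log2 fold change of -0.39 ± 0.07 (SE), adjusted p = 0.0027. Neither gene overlapped between the groups. *Pfkm* overlaps the genes *Senp1* and *Gm26513*. *Pfkp* differed by 0.26 ± 0.10 (SE), adjusted p = 0.15.

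*Suclg2* (chr6:95473009-95718800, minus strand) was counted at 251, 224, 194, 238 and 246 CPM in WT CTAL and 184, 205, 185, 183 and 185 CPM in WT MTAL. WT CTAL replicate 8 lay within the MTAL range. The log2 fold change was -0.29 ± 0.08 (SE), adjusted p = 0.039. The alpha subunit *Suclg1*, which pairs with both beta subunits, had -0.22 ± 0.07 (SE), adjusted p = 0.081 and its groups did not overlap.

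WT CTAL replicate 1, the pool with conflicting labels, bears on 4 of these calls. Without it 3 of the 38 rows passed, *Aldoc*, *Pfkm* and *Pgam2*, and the log2 fold changes were 0.44 for *Slc2a1* (adjusted p = 0.076), 0.35 for *Ldha* (adjusted p = 0.053), 0.31 for *Pfkl* (adjusted p = 0.097) and -0.26 for *Suclg2* (adjusted p = 0.13). *Aldoc*, *Pfkm* and *Pgam2* passed with each of the 10 pools left out in turn. *Ldha* was lost without replicate 1 alone. *Slc2a1* was also lost without WT CTAL replicate 8 or 22 or WT MTAL replicate 13 or 19, and *Pfkl* without WT CTAL replicate 8 or 10 or WT MTAL replicate 11, 13 or 19. *Suclg2* passed in 2 of the 10 fits, those without WT CTAL replicate 8 and WT MTAL replicate 13. In the pools without *Xist*, where WT MTAL is replicate 13 alone and was taken to vary like the other groups, *Aldoc* (1.23, adjusted p = 0.013), *Pgam2* (-1.69, adjusted p = 0.0091) and *Slc2a1* (0.77, adjusted p = 0.019) passed. *Pfkm* (-0.41, adjusted p = 0.38), *Ldha* (0.61, adjusted p = 0.085), *Pfkl* (0.47, adjusted p = 0.088) and *Suclg2* (-0.15, adjusted p = 0.79) did not.

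In cKO mice, MTAL and CTAL were compared in pools that the WT comparison did not use. *Slc2a1*, *Aldoc*, *Pfkl* and *Ldha* were again more expressed in MTAL, 4 of 38 against 1.12% of 12044 genes, and their groups did not overlap. Groups did not overlap for 6 rows that were higher and 5 that were lower of 38, against 4.2% and 5.87% of all genes tested. No row passed as lower (0 of 38, against 0.631% of all genes), and no called row passed 1 log2 unit (0 of 38, against 0.938%) in the quasi-likelihood test of edgeR. At an unadjusted p under 0.05 in that test the count was 13 of 38 in either direction. No share of all genes was counted at this unadjusted threshold, here or below. The likelihood ratio tests of edgeR and DESeq2 each called 1 row lower, *Pgam2*. The median log2 fold change was -0.02 over the 38 rows and 0.03 over all genes tested. The thin limb markers summed to 212 to 235 CPM in cKO MTAL and 79.2 to 102 CPM in cKO CTAL, without overlap, with *Aqp1* and *Cryab* among those called higher, and their part was not tested.

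*Slc2a1* was counted at 192, 128, 157, 151 and 159.9 CPM in cKO CTAL and 264, 278 and 259 CPM in cKO MTAL, with a log2 fold change of 0.79 ± 0.12 (SE), adjusted p = 0.0047. It passed with each of the 8 pools left out. *Aldoc* was counted at 48.9, 82.05, 73.7, 63.2 and 54.96 CPM in cKO CTAL and 137, 95.3 and 121 CPM in cKO MTAL, with a log2 fold change of 0.90 ± 0.17 (SE), adjusted p = 0.021. Both genes were higher in each MTAL pool than in any CTAL pool.

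*Pfkl* was counted at 194, 162, 159.7, 149 and 170.4 CPM in cKO CTAL and 226, 243 and 229 CPM in cKO MTAL, with a log2 fold change of 0.51 ± 0.10 (SE), adjusted p = 0.025. *Ldha* was counted at 194, 131, 131, 136 and 129.9 CPM and 198, 283 and 215 CPM, a log2 fold change of 0.72 ± 0.15 (SE), adjusted p = 0.039. The highest *Ldha* values of both groups were those of cKO CTAL replicate 2 and cKO MTAL replicate 18, the pools with the highest sums of injury markers, whose part in the result was not tested. Without cKO MTAL replicate 18 the *Ldha* value was 0.56 (adjusted p = 0.052), and without cKO CTAL replicate 2 it was 0.83 (adjusted p = 0.0068).

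The calls in cKO depended on single pools. Leaving out cKO CTAL replicate 9 or 21, or cKO MTAL replicate 16 or 20, left *Slc2a1* as the single call, and leaving out cKO CTAL replicate 4 or 7 left *Slc2a1* and *Aldoc*. The log2 fold changes stayed between 0.76 and 1.05 for *Aldoc*, 0.47 and 0.56 for *Pfkl* and 0.56 and 0.83 for *Ldha*. In the pools without *Xist* all 4 passed, with *Hk1* and *Eno1* beside them.

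*Pgam2* was counted at 26.9, 16.6, 19.3, 22.9 and 18.3 CPM in cKO CTAL and 12.4, 13.03 and 11.4 CPM in cKO MTAL. The groups did not overlap, with a log2 fold change of -0.73 ± 0.19 (SE), adjusted p = 0.079. *Pfkm* had -0.30 ± 0.12 (SE), adjusted p = 0.23, with 127, 126, 122, 138 and 149 CPM in cKO CTAL and 95.5, 93.8 and 125 CPM in cKO MTAL, where replicate 20 lay within the CTAL range. *Suclg2* had -0.11 ± 0.09 (SE), adjusted p = 0.56, with 211, 215, 211, 224 and 229 CPM and 214, 191 and 186 CPM. *Hk1*, with 0.22 ± 0.08 (SE), adjusted p = 0.13 in WT and 0.34 ± 0.10 (SE), adjusted p = 0.091 in cKO, did not pass in either genotype.

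**Figure D2:**
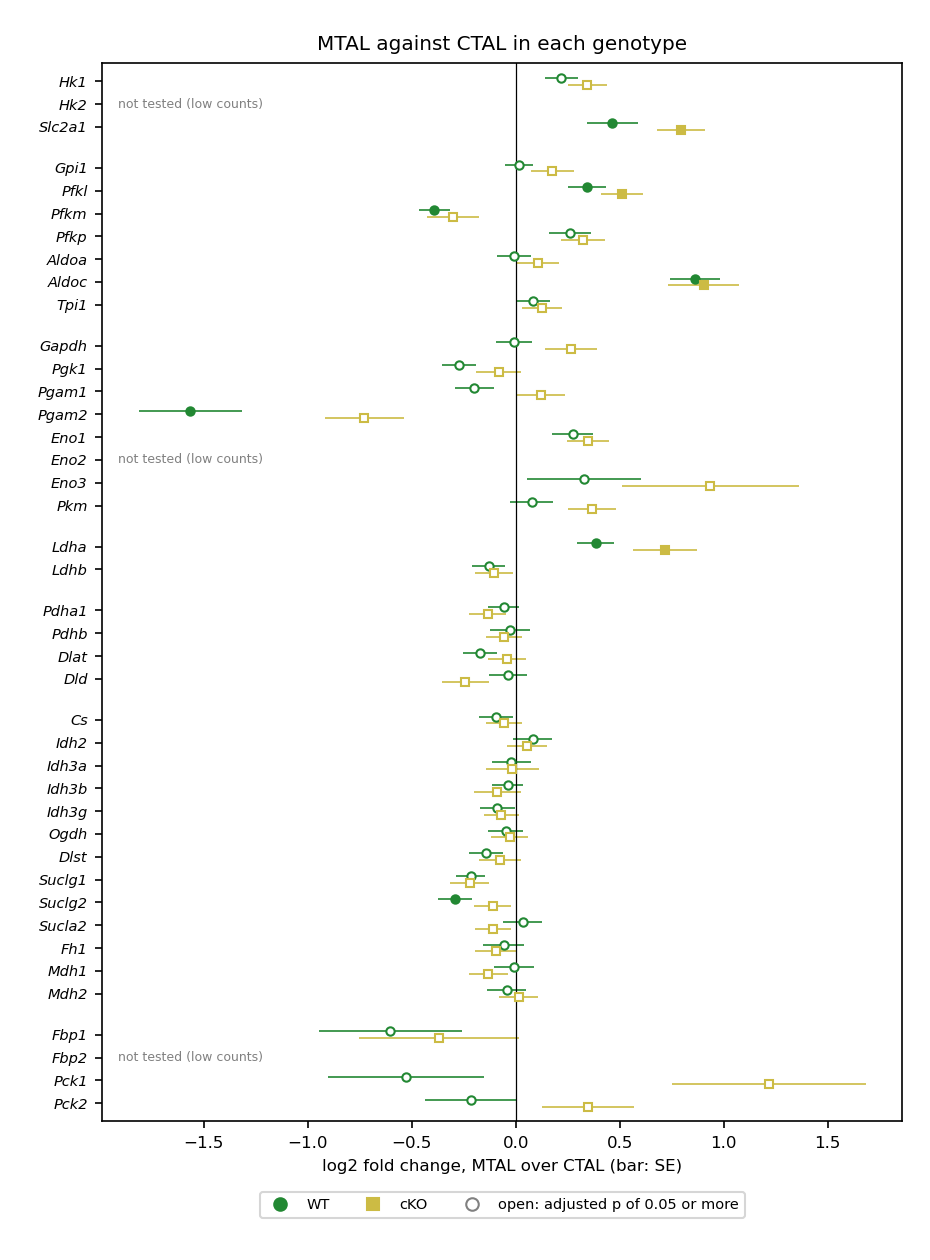
Log2 fold change of MTAL over CTAL for the 38 tested rows in WT (circles) and cKO (squares), with SE as bars. Filled markers passed an adjusted p of 0.05. *Slc2a1*, *Pfkl*, *Aldoc* and *Ldha* are filled on the right in both genotypes, and the TCA cycle genes stay between -0.29 and 0.08.

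The steps downstream of pyruvate showed small differences. In WT the 13 TCA cycle genes ranged from -0.29 (*Suclg2*) to 0.08 (*Idh2*) in log2 fold change between MTAL and CTAL, and in cKO from -0.22 (*Suclg1*) to 0.05 (*Idh2*). Their medians were -0.05 and -0.08. The 4 genes of the pyruvate dehydrogenase complex ranged from -0.17 (*Dlat*) to -0.03 (*Pdhb*) in WT and from -0.24 (*Dld*) to -0.04 (*Dlat*) in cKO, with none passing. The SE of these 17 genes lay between 0.07 and 0.13 log2 units.

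For the 4 genes higher in MTAL in both genotypes, and for *Pgam2*, the promoters are shown so that their sequences can be compared. Each is the window from 250 bases before to 50 bases after a transcript start, from RefSeq on GRCm38.p6, and the first of the 2 listed starts is given for *Aldoc* and *Ldha*. Capitals mark ACGTG and GCGTG, the core letters of the hypoxia response element, and AAGGTCA, the element of estrogen-related receptors, on either strand (where the letters CACGTG occur, both strands hold ACGTG).
Slc2a1 promoter, chr4:119108495-119108794, plus strand: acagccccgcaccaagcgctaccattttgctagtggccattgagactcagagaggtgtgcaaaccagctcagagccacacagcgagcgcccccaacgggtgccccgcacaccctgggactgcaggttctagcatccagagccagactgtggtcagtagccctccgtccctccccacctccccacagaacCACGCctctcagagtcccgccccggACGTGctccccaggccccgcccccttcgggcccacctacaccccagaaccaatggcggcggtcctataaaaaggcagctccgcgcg
Pfkl promoter, chr10:78009758-78010057, minus strand: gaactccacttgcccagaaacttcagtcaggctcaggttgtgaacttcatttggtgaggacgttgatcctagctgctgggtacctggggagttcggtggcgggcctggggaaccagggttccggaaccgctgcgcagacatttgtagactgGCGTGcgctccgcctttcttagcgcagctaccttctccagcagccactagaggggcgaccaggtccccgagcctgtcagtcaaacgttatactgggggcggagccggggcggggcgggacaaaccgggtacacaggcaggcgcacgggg
Aldoc promoter, chr11:78322823-78323122, plus strand: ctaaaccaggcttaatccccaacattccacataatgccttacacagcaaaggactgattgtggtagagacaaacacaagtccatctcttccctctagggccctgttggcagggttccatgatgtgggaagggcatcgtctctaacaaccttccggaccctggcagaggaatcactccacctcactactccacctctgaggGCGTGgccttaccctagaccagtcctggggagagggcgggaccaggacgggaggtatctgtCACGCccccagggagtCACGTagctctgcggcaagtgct
Ldha promoter, chr7:46845554-46845853, plus strand: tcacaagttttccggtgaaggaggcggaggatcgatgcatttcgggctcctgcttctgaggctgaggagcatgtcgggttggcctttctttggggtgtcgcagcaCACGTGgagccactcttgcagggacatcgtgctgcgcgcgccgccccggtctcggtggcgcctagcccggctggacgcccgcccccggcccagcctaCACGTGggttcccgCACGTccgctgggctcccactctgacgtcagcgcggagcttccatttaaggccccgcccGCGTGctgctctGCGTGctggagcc
Pgam2 promoter, chr11:5803747-5804046, minus strand: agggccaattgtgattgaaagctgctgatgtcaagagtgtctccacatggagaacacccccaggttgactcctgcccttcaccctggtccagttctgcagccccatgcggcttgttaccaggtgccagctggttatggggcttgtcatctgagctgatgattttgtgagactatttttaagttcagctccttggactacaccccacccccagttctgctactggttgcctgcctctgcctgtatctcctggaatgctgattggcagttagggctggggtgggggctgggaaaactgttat
The *Ldha* window held 5 matches of ACGTG and 2 of GCGTG, the *Aldoc* window 1 and 2, the *Slc2a1* window 1 of each, and the *Pfkl* window 1 of GCGTG. The *Pgam2* window held none of the motifs, and AAGGTCA was in none of the 5 windows. The windows of *Pfkm* and *Suclg2*, also called lower in WT MTAL, are not shown. The first listed *Pfkm* window held 3 matches of ACGTG, and another held 1 of ACGTG and 1 of GCGTG. The *Suclg2* window held none of the motifs. The matches were thus not limited to genes higher in MTAL. Of all 32851 promoter windows, 43.8% held ACGTG or GCGTG on either strand (19.6% ACGTG and 32.4% GCGTG) and 4.72% held AAGGTCA. Windows were found for 40 of the 41 genes, all but *Idh3a*. By gene, 27 of 40 members held ACGTG or GCGTG in at least 1 window, against 46.7% of all 27025 gene names, and 3 of 40 (*Tpi1*, *Eno1* and *Ogdh*) held AAGGTCA, against 5.38%. These matches describe letters and no binding was measured.

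**Figure D3:**
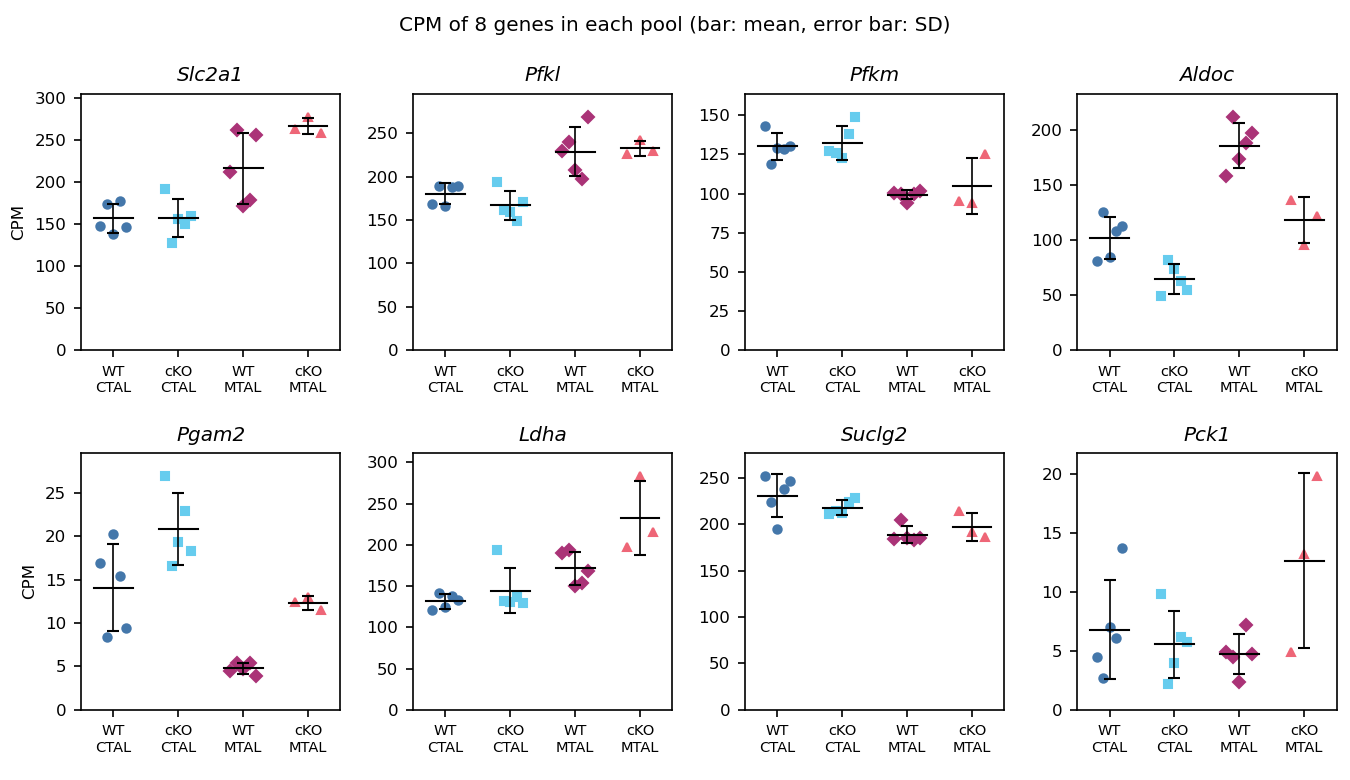
CPM of 8 genes in each pool (points), with group means and SD. *Slc2a1*, *Pfkl*, *Aldoc* and *Ldha* are higher in MTAL than in CTAL of the same genotype, *Aldoc* is lower in cKO than in WT of both segments, and WT MTAL is the group with the lowest *Pgam2*.

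The second question was whether these genes differ between cKO and WT in each segment. In MTAL 2 of 38 rows passed. *Pgam2* was more expressed in cKO than in WT (1 of 38, against 4.44% of 12060 genes tested), and *Aldoc* was less expressed (1 of 38, against 2.57%). *Pgam2* alone passed 1 log2 unit (1 of 38, against 3.74%). A single row of 38 in either direction is below or close to these shares of all genes. The median log2 fold change was 0.05 over the 38 rows and 0.00 over all genes tested. Markers of other states and cells moved in the same comparison, and their part in the results below was not tested. The injury markers *Lcn2* (3.44 ± 0.55 (SE), adjusted p = 0.0014) and *Spp1* (1.85 ± 0.32 (SE), adjusted p = 0.0026) were higher in cKO MTAL. The 6 endothelial markers summed to 144 to 243 CPM in cKO MTAL and 256 to 398 CPM in WT MTAL, with *Cdh5*, *Emcn*, *Flt1* and *Plvap* called lower. cKO MTAL replicate 20 stood apart in principal cell markers (1005 CPM, against 118 and 124 CPM in the other cKO MTAL pools) and in intercalated cell markers (249.4 CPM, against 42.2 and 58.1 CPM).

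*Pgam2* stood at 4.45, 5.39, 4.73, 5.37 and 3.86 CPM in WT MTAL and at 12.4, 13.03 and 11.4 CPM in cKO MTAL, with a log2 fold change of 1.37 ± 0.29 (SE), adjusted p = 0.011. The groups did not overlap, and the cKO MTAL level lay within the range of WT CTAL (8.37 to 20.2 CPM). Its share of phosphoglycerate mutase TPM was 3.39% ± 0.566 in WT MTAL (SD, n = 5) and 6.87% ± 0.483 in cKO MTAL (SD, n = 3). Of the muscle markers *Acta1* lay at 7.84 to 15.6 CPM in WT MTAL and 11.01 to 33.9 CPM in cKO MTAL, where it was called higher (1.20 ± 0.33 (SE), adjusted p = 0.038), while the other 4 stayed under 1 CPM in both. *Pgam2* passed with each of the 8 pools left out. In the pools without *Xist* it was 1.19, adjusted p = 0.052.

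*Aldoc* stood at 158, 212, 173, 188 and 197 CPM in WT MTAL and at 137, 95.3 and 121 CPM in cKO MTAL, with a log2 fold change of -0.65 ± 0.14 (SE), adjusted p = 0.0099. The groups did not overlap, and cKO MTAL replicate 18, the pool with the highest injury markers, was the lowest. The value without that pool was -0.52, adjusted p = 0.035, and the call held with each of the 8 pools left out. In the pools without *Xist* it was -0.84, adjusted p = 0.09. Both calls were thus lost in that fit, in which WT MTAL is replicate 13 alone.

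Several glycolytic genes had positive values that did not pass the adjusted threshold. *Ldha* was counted at 198, 283 and 215 CPM in cKO MTAL, all above WT MTAL, with 0.44 ± 0.14 (SE), adjusted p = 0.061. The value was 0.28, adjusted p = 0.23 without cKO MTAL replicate 18 and 0.55, adjusted p = 0.041 without cKO MTAL replicate 16. *Pgk1*, phosphoglycerate kinase, was counted at 207, 186, 181, 191 and 172 CPM in WT MTAL and 219, 239 and 232 CPM in cKO MTAL, with no overlap and 0.30 ± 0.11 (SE), adjusted p = 0.097. *Aldoa* had 0.18 ± 0.10 (SE), adjusted p = 0.32, *Pgam1* 0.26 ± 0.12 (SE), adjusted p = 0.19 and *Slc2a1* 0.31 ± 0.14 (SE), adjusted p = 0.21. Groups did not overlap for 4 rows that were higher (*Aldoa*, *Pgk1*, *Pgam2* and *Ldha*) and 2 that were lower (*Aldoc* and *Idh3g*) of 38, where 6.82% and 7.56% of all genes tested did so.

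The gluconeogenic genes stayed low. *Pck1*, the cytosolic phosphoenolpyruvate carboxykinase, was counted at 4.91, 4.51, 2.34, 7.19 and 4.76 CPM in WT MTAL and 4.94, 13.2 and 19.8 CPM in cKO MTAL, with 1.42 ± 0.42 (SE), adjusted p = 0.055. In cKO MTAL its highest pools, replicates 20 and 18, also held the most reads of proximal tubule markers, and *Slc34a1* was at 31.7 and 22.02 CPM there against 1.502 to 6.53 CPM in WT MTAL. Of the 13 proximal tubule markers, 1 stayed under 1 CPM in all cKO MTAL pools and 3 in all WT MTAL pools. The part of these reads in the result was not tested. Without cKO MTAL replicate 16 *Pck1* passed (1.80, adjusted p = 0.013), and without replicate 20 it was 0.95, adjusted p = 0.29.

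*Pck2* was counted at 11.7, 13.6, 10.03, 17.3 and 8.36 CPM in WT MTAL and 16.7, 19.4 and 28.04 CPM in cKO MTAL, with 0.81 ± 0.27 (SE), adjusted p = 0.078, and at 16.3, 10.2, 19.1, 13.2 and 12.1 CPM in WT CTAL and 18.1, 22.5, 17.2, 12.9 and 15.8 CPM in cKO CTAL. *Fbp1* was counted at 6.35, 3.66, 2.29, 4.87 and 11.7 CPM in WT MTAL and 6.56, 12.05 and 3.62 CPM in cKO MTAL, with 0.37 ± 0.50 (SE), adjusted p = 0.7, and at 9.99, 6.21, 9.37, 7.08 and 10.7 CPM and 12.8, 6.59, 11.01, 12.5 and 5.91 CPM in CTAL. Both overlapped in each of the 4 comparisons.

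The 13 TCA cycle genes ranged from -0.27 (*Mdh1*) to 0.07 (*Suclg2*) in cKO against WT MTAL, with a median of -0.05, and none passed. *Mdh1* had -0.27 ± 0.11 (SE), adjusted p = 0.16, *Sucla2* -0.21 ± 0.11 (SE), adjusted p = 0.29 and *Idh2* -0.19 ± 0.11 (SE), adjusted p = 0.34. In the pyruvate dehydrogenase complex *Dld*, its shared dihydrolipoamide dehydrogenase, had -0.26 ± 0.12 (SE), adjusted p = 0.21, and the catalytic *Pdha1* -0.12 ± 0.10 (SE), adjusted p = 0.53. The 10 rows with an unadjusted p under 0.05 included *Mdh1* and *Dld* on the lower side. The share of all genes at that threshold was not counted.

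In CTAL 1 of 38 rows passed between genotypes. Markers of other cells moved in the same comparison, and their part in the result was not tested. The thin limb markers summed to 79.2 to 102 CPM in cKO CTAL and 114 to 254 CPM in WT CTAL, without overlap. All 6 endothelial markers had negative values, and none of them was called. *Aldoc* was less expressed in cKO CTAL (1 of 38, against 0.564% of 11702 genes tested), with 80.8, 125, 84.7, 108 and 113 CPM in WT and 48.9, 82.05, 73.7, 63.2 and 54.96 CPM in cKO and a log2 fold change of -0.67 ± 0.15 (SE), adjusted p = 0.04. The groups overlapped, since cKO CTAL replicate 4 lay at 82.05 CPM and WT CTAL replicate 1 at 80.8 CPM. The call was lost when WT CTAL replicate 3, 10 or 22, or cKO CTAL replicate 2, 7, 9 or 21, was left out, with values from -0.72 to -0.59 in these fits. In the pools without *Xist* it was -0.43, adjusted p = 0.82.

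No row was higher in cKO CTAL (0 of 38, against 0.658% of all genes), and no called row passed 1 log2 unit (0 of 38, against 0.47%). At an unadjusted p under 0.05 the quasi-likelihood test of edgeR gave 2 rows, *Aldoc* and *Pgam2*, and the likelihood ratio tests of edgeR and DESeq2 called *Aldoc* alone. *Pgam2* was counted at 16.96, 8.37, 20.2, 15.4 and 9.45 CPM in WT CTAL and 26.9, 16.6, 19.3, 22.9 and 18.3 CPM in cKO CTAL, with 0.54 ± 0.22 (SE), adjusted p = 0.33. WT CTAL replicates 3 and 22, which held *Xist*, were again the lowest. The 13 TCA cycle genes ranged from -0.16 (*Idh3g*) to 0.01 (*Dlst*), and the median over all 38 rows was -0.02, against 0.00 over all genes.

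**Figure D4:**
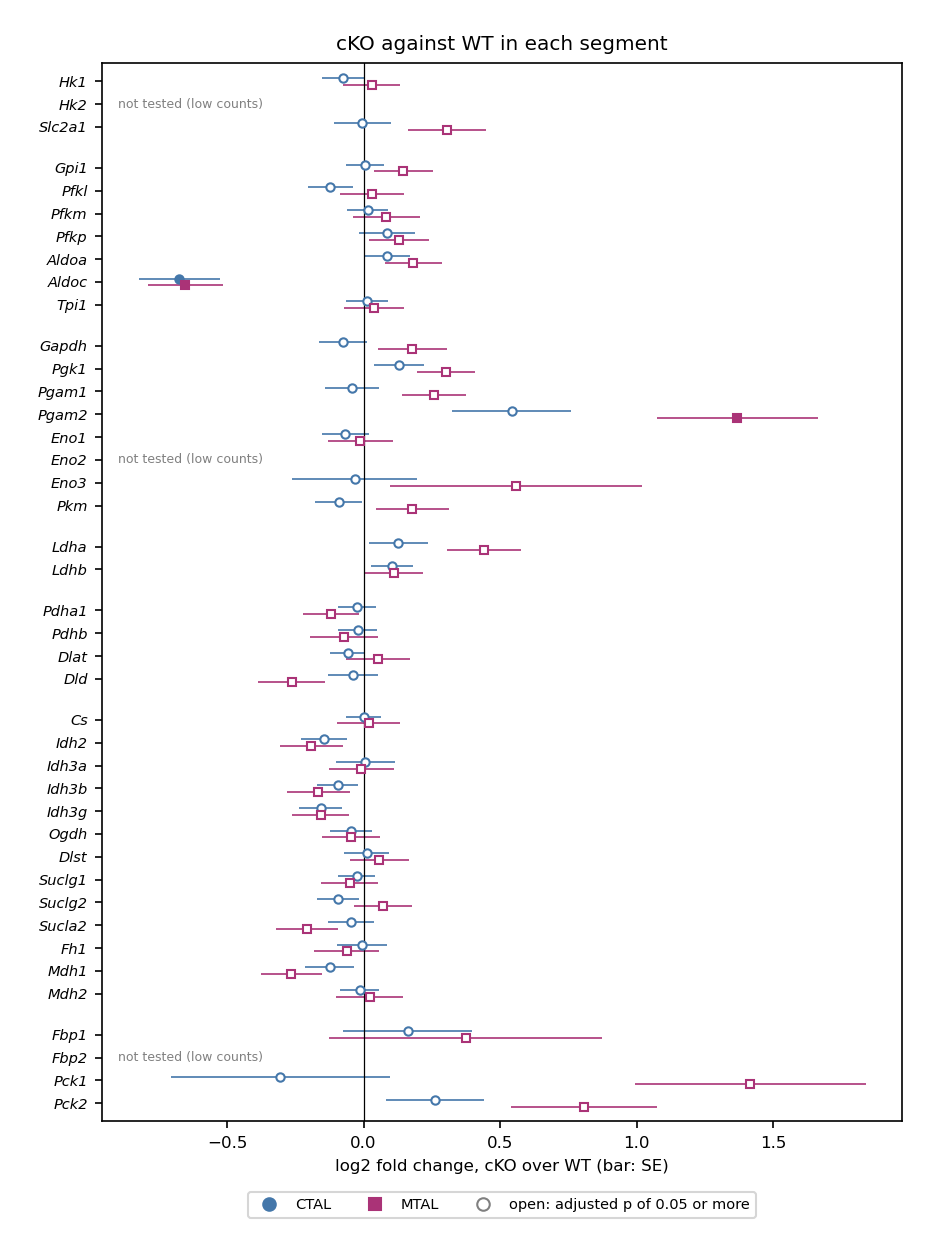
Log2 fold change of cKO over WT for the 38 tested rows in CTAL (circles) and MTAL (squares), with SE as bars. Filled markers passed an adjusted p of 0.05, which *Aldoc* did in both segments and *Pgam2* in MTAL. In MTAL 24 of 38 values lie above 0.

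Whether the genotype effect differed between segments was tested as an interaction term over all 18 pools. No member passed as larger in MTAL (0 of 38, against 0.262% of 12586 genes) or as smaller (0 of 38, against 0.0238%). In the quasi-likelihood test of edgeR 2 rows had an unadjusted p under 0.05, *Pgam2* (0.80 ± 0.32, adjusted p = 0.24) and *Pck1* (1.71 ± 0.63, adjusted p = 0.2). The likelihood ratio tests of edgeR and DESeq2 and limma on TPM also called 0. For *Aldoc* the difference between the effects was 0.01 ± 0.22 log2 units. With that SE the effects in the 2 segments were not shown to be equal.

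**Figure D5:**
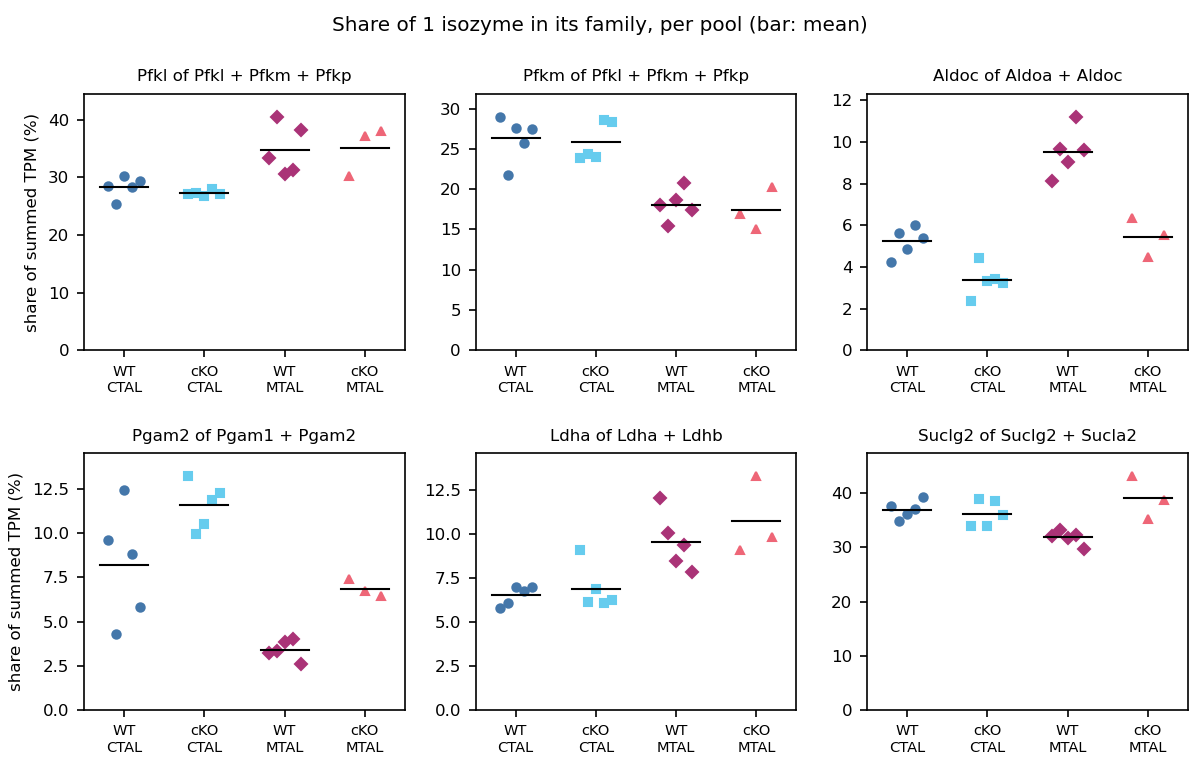
Share of 1 isozyme in the summed TPM of its family (%), in each pool (points) with group means. The *Aldoc* share is highest in WT MTAL (8.13% to 11.2%), the *Pgam2* share is lowest there (2.58% to 4.01%), and the *Pfkm* share is lower in both MTAL groups than in CTAL.

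The shares of the smaller isozymes are given as a description, without a test. *Aldoc* held 5.45% ± 0.953 of aldolase TPM in cKO MTAL (SD, n = 3), with a range of 4.46% to 6.37% that lay below that of WT MTAL (8.13% to 11.2%), and 3.36% ± 0.743 in cKO CTAL (SD, n = 5). *Ldha* held 10.7% ± 2.22 of lactate dehydrogenase TPM in cKO MTAL and 6.87% ± 1.28 in cKO CTAL. *Pfkm* held 18.1% ± 1.93 of phosphofructokinase TPM in WT MTAL and 17.4% ± 2.67 in cKO MTAL, against 26.3% ± 2.79 in WT CTAL and 25.8% ± 2.41 in cKO CTAL. *Suclg2* held 39.1% ± 3.92 of the beta subunits in cKO MTAL, above every WT MTAL pool (29.8% to 33.2%), and 36.3% ± 2.42 in cKO CTAL.

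A list of 57 further genes of the same pathways was counted in the same fits, and 43 or 44 of them had enough reads. Between the WT segments 1 was higher (*G6pc*) and 5 were lower in MTAL (*Slc5a1*, *Slc2a4*, *Mpc1*, *Pdk3* and *Pgm1*), where 2.76% and 4.1% of all genes were called. In cKO against WT MTAL *Slc5a1* was higher, and *G6pc* and *Slc16a7* were lower, where 4.44% and 2.57% of all genes were called. In cKO against WT CTAL 1 was lower (*G6pc*, against 0.564% of all genes). Between the cKO segments 0 of 44 passed (against 1.12% higher and 0.631% lower of all genes) in edgeR's quasi-likelihood test. At an unadjusted p under 0.05 in that test there were 6, with no share of all genes counted.

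*G6pc*, the catalytic subunit of glucose-6-phosphatase, releases free glucose at the end of gluconeogenesis. It was counted at 8.17, 16.6, 10.6, 12.5 and 10.1 CPM in WT CTAL, 6.21, 4.64, 5.33, 6.098 and 4.46 CPM in cKO CTAL, 53.01, 66.4, 93.1, 49.2 and 44.3 CPM in WT MTAL and 14.1, 6.81 and 6.46 CPM in cKO MTAL. WT MTAL stood above all other pools. The log2 fold change was 2.42 ± 0.22 (SE), adjusted p = 2.6e-06 between WT segments, -2.75 ± 0.31 (SE), adjusted p = 5.7e-05 for cKO against WT in MTAL and -1.11 ± 0.20 (SE), adjusted p = 0.015 in CTAL. It was the single listed gene whose genotype effect differed between segments, with -1.67 ± 0.36 (SE), adjusted p = 0.045. The proximal tubule markers summed to 170.0 to 526.5 CPM in cKO MTAL and to 91.3 to 169.8 CPM in WT MTAL. Their part in the *G6pc* result was not tested.

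*Slc5a1* encodes SGLT1, a sodium-coupled glucose carrier. It was counted at 365, 323, 266, 334 and 337 CPM in WT CTAL, 198, 148, 114, 133 and 177 CPM in WT MTAL and 267, 279 and 313 CPM in cKO MTAL, with -1.08 ± 0.13 (SE), adjusted p = 4.9e-05 between WT segments and 0.90 ± 0.15 (SE), adjusted p = 0.0022 for cKO against WT in MTAL. *Slc2a4*, the insulin-responsive GLUT4, had -0.62 ± 0.10 (SE), adjusted p = 0.00059 between WT segments. *Slc16a7* encodes the monocarboxylate transporter MCT2. It was counted at 1399, 1388, 1414, 1279.9 and 1465 CPM in WT MTAL and 894, 786 and 735 CPM in cKO MTAL, without overlap, with -0.78 ± 0.11 (SE), adjusted p = 0.00043.

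Among the genes that act on pyruvate, 2 outside the 41 were lower in WT MTAL. *Mpc1*, a subunit of the mitochondrial pyruvate carrier, had -0.33 ± 0.08 (SE), adjusted p = 0.018 between WT segments, and *Pdk3*, a kinase that inhibits pyruvate dehydrogenase, -0.47 ± 0.14 (SE), adjusted p = 0.047. *Pdk4*, another such kinase, ranged from 137 to 519.6 CPM in WT MTAL alone and did not pass (0.63 ± 0.33 (SE), adjusted p = 0.33). *Pgm1*, a phosphoglucomutase that links glucose 6-phosphate to glycogen, had -0.44 ± 0.12 (SE), adjusted p = 0.038.

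Of 10 transcription factors and coactivators linked to these pathways, 2 were lower in cKO than in WT MTAL, against 2.57% of all genes. They were *Ppargc1a*, the coactivator of mitochondrial biogenesis (-0.65 ± 0.15 (SE), adjusted p = 0.017), and *Esrrg*, an estrogen-related receptor (-0.44 ± 0.13 (SE), adjusted p = 0.044). *Myc* was higher in MTAL than in CTAL of WT (1.0 ± 0.24 (SE), adjusted p = 0.018) and of cKO mice (1.25 ± 0.27 (SE), adjusted p = 0.042) and lower in cKO than in WT CTAL (-1.17 ± 0.22 (SE), adjusted p = 0.015). *Hif1a* and *Epas1*, which encode the oxygen-regulated subunits of hypoxia-inducible factors, did not pass in any comparison. *Hif1a* had 0.07 ± 0.09 (SE), adjusted p = 0.76 between WT segments and *Epas1* -0.45 ± 0.16 (SE), adjusted p = 0.1 for cKO against WT in MTAL.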

How the data were processed

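Pools of microdissected TAL, each from a single animal, were sequenced. The authors trimmed the reads, mapped them with DRAGEN to mm10 (GRCm38) and deposited estimated counts and TPM values per gene. The estimated counts were not normalized, and 6.26% to 9.53% of a pool's genes had a decimal. TPM values were scaled for transcript length and depth. The trimming tool is fastp in the methods and Trimmomatic in the processing notes. The strand setting and the treatment of reads with several matches are not given in the sources used here. Pools that the study excluded were not analysed here, among them a cKO CTAL pool left out for its *Cldn10* level.

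Estimated counts were rounded to whole numbers, where the plan had assumed whole counts. The filter kept genes that reached 3 CPM in 5 pools or more (3 pools for comparisons that include cKO MTAL). Library sizes were scaled by TMM, and edgeR's quasi-likelihood fit (glmQLFTest, version 4.0.16, in R version 4.3.3) used the pools of the groups compared. A gene was called at a Benjamini-Hochberg adjusted p under 0.05. The SE is the log2 fold change divided by the square root of F. The interaction of genotype and segment was fitted over all 18 pools. The fits were tested on simulated counts. The tests set group differences against the spread between pools, each from a single animal. Differences between pools with and without *Xist* are part of that spread and of the group differences.

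The WT and cKO segment comparisons share no pools. Each genotype comparison shares pools with both segment comparisons. Alternatives were the likelihood ratio tests of edgeR and DESeq2 (version 1.42.0), DESeq2 size factors, total counts, no filter, limma (version 3.58.1) on log2(TPM + 1) and log2(TPM + 0.1), fits of all 18 pools, a term for *Xist*, WT CTAL replicate 1 counted as cKO, and each pool left out. The fit of pools without *Xist* (0.2 TPM or more counted as present), with genes at 3 CPM in 3 pools, was chosen after seeing the data.

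Coordinates are from GENCODE M21 (99.5% of the identifiers matched) and promoters from RefSeq. Values per pool were given for each called member and for the main isozyme of each family. Values of *Pck1*, *Pgk1* and the genes beside them were added after their values were seen. The members and lists were chosen with earlier results of these data known. A result on the further pathway genes is not reported here.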

Additional observations from a re-analysis of the deposited data

Results flagged for a closer look

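In 9 of 114 groups of 5 pools (7.89%, where chance flags about 5%), 1 pool stood apart from the other 4 in the CPM of a member. In WT MTAL replicate 17, *Aldoa* (1195 CPM), *Gapdh* (188 CPM) and *Mdh2* (380.3 CPM) were the lowest of their group, and in replicate 15 *Pfkm* was (94.3 CPM). In cKO CTAL replicate 2, *Eno1* (803 CPM), *Ldha* (194 CPM) and *Sucla2* (219 CPM) were the highest. This pool also held *Xist* and the second highest sum of tubular injury markers. *Idh2* was lowest in WT CTAL replicate 8 (1022 CPM), and *Suclg2* was highest in WT MTAL replicate 13 (205 CPM), the WT MTAL pool without *Xist*.

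The genotype effect on *G6pc*, which is not among the 41 genes, differed between MTAL and CTAL in the interaction test, with -1.67 log2 units.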

How the results depend on the processing

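Among the log2 fold changes of members that were recomputed, none reversed its direction. The balance of calls between WT segments turned, from 4 higher and 3 lower in MTAL as reported. It was 4 and 5 with the likelihood ratio test of DESeq2, 1 and 3 with limma on either TPM scale, and 2 and 3 with a term for *Xist*. The medians over the members lie near 0 and did change sign. In cKO against WT MTAL the median was -0.02 with no filter, and in CTAL it was 0.03 with total counts, 0.11 with limma on either TPM scale and 0.00 without WT CTAL replicate 3. Between WT segments it was 0.01 in the pools without *Xist* and 0.00 without WT CTAL replicate 3, and between cKO segments 0.01 with limma on either TPM scale and 0.03 without cKO MTAL replicate 18. Genes outside the 41 were not recomputed one by one under the alternatives. The count of members called in cKO against WT MTAL, 2 as reported, was 5 with the likelihood ratio tests of edgeR and DESeq2, 4 with total counts, 1 with limma on either TPM scale, 6 in a fit of all 18 pools, 4 with a term for *Xist* and 0 in the pools without *Xist*. With each pool left out it was 2 to 4, and the 4 came without cKO MTAL replicate 16, where *Ldha* and *Pck1* passed too. In cKO against WT CTAL, 1 as reported, it was 0 with total counts, with limma on either TPM scale and in the pools without *Xist*, and 0 to 1 with each pool left out. Between WT segments, 7 as reported, it was 4 with limma on either TPM scale, 3 with WT CTAL replicate 1 counted as cKO, 3 in the pools without *Xist*, and 3 to 8 with each pool left out. The lowest of these came without WT CTAL replicate 1, and 4 without WT MTAL replicate 19. Between cKO segments, 4 as reported, it was 8 with the likelihood ratio test of DESeq2, 1 and 0 with limma on log2(TPM + 1) and log2(TPM + 0.1), 6 in the pools without *Xist* or with a term for it, and 1 to 4 with each pool left out. The interaction count was 0 in every alternative. The cause of these moves was not tested, except that fewer pools enter some fits.

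*Pgam2* and *Aldoc* between WT segments passed in all alternatives, from -1.70 to -1.40 and from 0.78 to 1.23 log2 units. *Aldoc* in cKO against WT MTAL was lost with limma on TPM (-0.57 and -0.58, adjusted p = 0.085 for both). On the TPM scale the median of all genes in that comparison was 0.19 to 0.21 log2 units. With the no-filter fit, *Eno2* and *Hk2* in cKO against WT MTAL were 1.39 (adjusted p = 0.24) and 0.81 (adjusted p = 0.43).

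Over all genes, the calls in cKO against WT MTAL were 535 higher and 310 lower as reported, 833 and 471 with the likelihood ratio test of edgeR, 852 and 507 with that of DESeq2, 717 and 223 with total counts, 818 and 581 with no filter, 285 and 32 with limma on log2(TPM + 1), 1256 and 804 in a fit of all 18 pools and 119 and 58 in the pools without *Xist*. In CTAL they were 77 and 66 as reported, 163 and 168 and 175 and 185 with the likelihood ratio tests of edgeR and DESeq2, 128 and 46 with total counts, 83 and 9 with limma on log2(TPM + 1) and 1 and 3 in the pools without *Xist*. Between WT segments they were 322 and 478 as reported, 97 and 355 with limma on log2(TPM + 1) and 78 and 138 in the pools without *Xist*. Between cKO segments they were 135 and 76 as reported, 533 and 200 and 587 and 235 with the likelihood ratio tests of edgeR and DESeq2, 362 and 146 with no filter, 45 and 23 with limma on log2(TPM + 1), 460 and 193 in a fit of all 18 pools, 475 and 197 with a term for *Xist*, and 659 and 174 without cKO MTAL replicate 18. The interaction calls were 33 and 3 as reported, 289 and 48 and 299 and 54 with the likelihood ratio tests of edgeR and DESeq2, 503 and 67 without cKO MTAL replicate 18 and 0 in the pools without *Xist*.

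The group of 3 pools limits the comparisons with cKO MTAL. No paired analysis was possible because the groups share no replicate numbers.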
